A study of Mus musculus with 24 samples.

Results

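Stbd1 and 7 other genes of glycogen metabolism, Gys1, Gbe1, Ugp2, Pygb, Pygm, Pygl and Ppp1r3c, were followed across the genotypes of a spinal cord RNA sequencing study. They are 8 of the 38924 genes in the deposited files, and all 8 were high enough to be tested. Stbd1 was chosen by its measured CPM, higher in mice with mutant Gars and wild-type Gcn2, and the other 7 were picked for their place in glycogen synthesis and breakdown. The question was whether the higher Stbd1 level came with changes in the other glycogen genes.

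The data are 24 libraries of whole spinal cord from mice at 8 weeks, 13 labelled male and 11 female. The mutant genotype, GarsP278KY/+, is a dominant mutation in 1 copy of Gars, the gene of glycyl-tRNA synthetase, and mice that carry it are a model of Charcot-Marie-Tooth disease type 2D, an inherited neuropathy. Gcn2, also called Eif2ak4, encodes a kinase that responds to uncharged tRNA and stalled ribosomes by phosphorylating a translation initiation factor, which raises the translation of the transcription factor ATF4. Mice wild type for Gcn2 (Gcn2+/+) comprised 4 Gars mutants and 4 with wild-type Gars, mice labelled heterozygous (Gcn2+/-) 4 Gars mutants and 4 with wild-type Gars, and mice labelled homozygous for the Gcn2 mutation (Gcn2-/-) 5 Gars mutants and 3 with wild-type Gars. The labels do not state what kind of allele the Gcn2 mutation is. All mice have the strain background label B6J;CASTxB6.129. The series' design text names the Gcn2+/+ and Gcn2-/- groups, and the Gcn2+/- mice come from the sample labels. Titles differ between libraries, but no label states that each came from a separate animal, so the p-values measure the spread between these libraries.

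The libraries held 19.7 to 32.4 M counts (M, mega). Eif2ak4 averaged 13.0 ± 1.28 CPM in the 5 Gcn2-/- Gars mutants and 13.6 ± 1.91 CPM in the 3 Gcn2-/- mice with wild-type Gars, 22.4 ± 1.41 and 22.7 ± 0.895 CPM in the same order in Gcn2+/- mice (n = 4 each), and 32.0 ± 1.01 and 31.2 ± 2.39 CPM in Gcn2+/+ mice (SD, n = 4 each), where CPM is a gene's count scaled to the library's total (counts per M). These levels follow the Gcn2 labels in every library, with no overlap between the 3 Gcn2 genotypes. Gars RNA does not check the Gars label, since the mutant allele is transcribed and the counts do not separate the alleles. All 10 astrocyte markers and all 8 oligodendrocyte markers looked for were tested, with summed levels of 6722 to 8849 and 22018 to 35254 CPM, and 9 of 10 motor neuron markers were found in the files and tested.

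Glycogen is the branched store of glucose, which in the central nervous system is held mainly in astrocytes. Ugp2 makes UDP-glucose, Gys1 encodes the muscle-type glycogen synthase that also serves the brain, and Gbe1 encodes the branching enzyme. Ppp1r3c, also known as PTG, brings protein phosphatase 1 to glycogen, where it activates the synthase. The phosphorylases encoded by Pygb, Pygm and Pygl (brain, muscle and liver forms) release glucose 1-phosphate from the ends of the chains. STBD1 is a membrane protein with a starch-binding domain that binds glycogen and the autophagy protein GABARAPL1, and it has been proposed to carry glycogen towards lysosomes.

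The upstream sequences of Stbd1 and Gbe1 are printed because these had the largest mean Gars effects up and down of the 8 genes. The log2 fold changes were 1.13 and -0.28, and that of Stbd1 contains the libraries that chose it. Both are from RefSeq on GRCm38.p6 and end at the last base before the annotated start. They run 5′ to 3′ on the plus strand, chr5:92602801-92603040 for Stbd1 and chr16:70313699-70313948 for Gbe1, and capitals mark matches to the GC box GGGCGG.
Stbd1: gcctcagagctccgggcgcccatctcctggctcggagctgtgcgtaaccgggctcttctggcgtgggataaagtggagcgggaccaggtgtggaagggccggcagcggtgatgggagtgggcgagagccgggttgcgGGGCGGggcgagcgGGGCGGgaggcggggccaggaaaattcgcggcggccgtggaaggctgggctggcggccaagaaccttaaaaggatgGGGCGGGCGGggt
Gbe1: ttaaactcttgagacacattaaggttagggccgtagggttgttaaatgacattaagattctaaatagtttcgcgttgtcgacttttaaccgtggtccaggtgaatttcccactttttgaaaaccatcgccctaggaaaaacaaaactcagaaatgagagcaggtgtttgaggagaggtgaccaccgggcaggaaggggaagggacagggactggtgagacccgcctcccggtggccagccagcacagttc
In the 240 bases before Stbd1, 4 GC boxes were found, the last of which overlaps the one before it, and 70.8% of bases were G or C, and in the 250 bases before Gbe1 no GC box was found and 48.8% were G or C, with 1 GC box just after the Gbe1 start. The median G and C content of 32851 mouse promoter windows of 300 bases was 52.7%, and 35.7% of those windows held a GC box on either strand. This motif was searched after the sequences had been seen. Of the other glycogen genes, Pygl also had 4 GC boxes in its window, counted on both strands. Gys1 had 3, Ugp2 had 1 or 2 depending on the annotated start, and Pygb, Pygm and Ppp1r3c had 0. The C/EBP-ATF response element, searched as TGATGNAA, occurs in 3.97% of the windows, and the cAMP response element core, searched as TGACGT, in 7.51%. Neither motif was found on either strand in the windows of the 8 genes.

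Stbd1 (ENSMUSG00000047963, chr5:92603041-92606579 of GRCm38, plus strand) RNA had a higher mean in Gars mutants with each Gcn2 genotype, by the widest margin with wild-type Gcn2. The 4 Gcn2+/+ Gars mutants had 3.62, 3.88, 5.82 and 5.43 CPM, against 1.12, 1.35, 1.13 and 1.34 CPM in the 4 Gcn2+/+ mice with wild-type Gars. The lowest mutant was above the highest mouse with wild-type Gars, and the ratio of the means was 3.80. Since this difference chose the gene, it is given as a description, with a log2 fold change of 1.80 ± 0.24 (SE).

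The Gcn2+/- Gars mutants had 2.32, 3.04, 3.58 and 3.66 CPM of Stbd1, against 2.14, 1.33, 2.01 and 1.43 CPM with wild-type Gars. These groups also did not overlap, with the lowest mutant at 2.32 CPM just above the highest mouse with wild-type Gars at 2.14 CPM. The ratio of the means was 1.82 and the log2 fold change 0.78 ± 0.23, with a 95% interval of 0.30 to 1.26. It did not pass the test over all genes (adjusted p = 0.192, edgeR quasi-likelihood with Benjamini-Hochberg). A two-sided exact permutation test of the log2 CPM values of these 8 libraries gave p = 0.0286, the smallest that 70 arrangements allow, and 0.0571 when adjusted over the 2 Gcn2 genotypes tested. This test and the like one in Gcn2-/- mice were chosen with earlier results of these data known, so they are not independent support.

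The 5 Gcn2-/- Gars mutants had 1.86, 1.82, 1.61, 2.71 and 1.42 CPM of Stbd1, against 0.947, 0.859 and 1.53 CPM in the 3 mice with wild-type Gars. One mutant, at 1.42 CPM, lay below the highest mouse with wild-type Gars. The ratio of the means was 1.69 and the log2 fold change 0.82 ± 0.24 (95% interval 0.31 to 1.33), which did not pass the test over all genes (adjusted p = 0.878). The two-sided exact permutation test over 56 arrangements gave p = 0.0714, and 0.0714 after adjustment, where the smallest possible p was 0.0179.

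**Figure D1:**
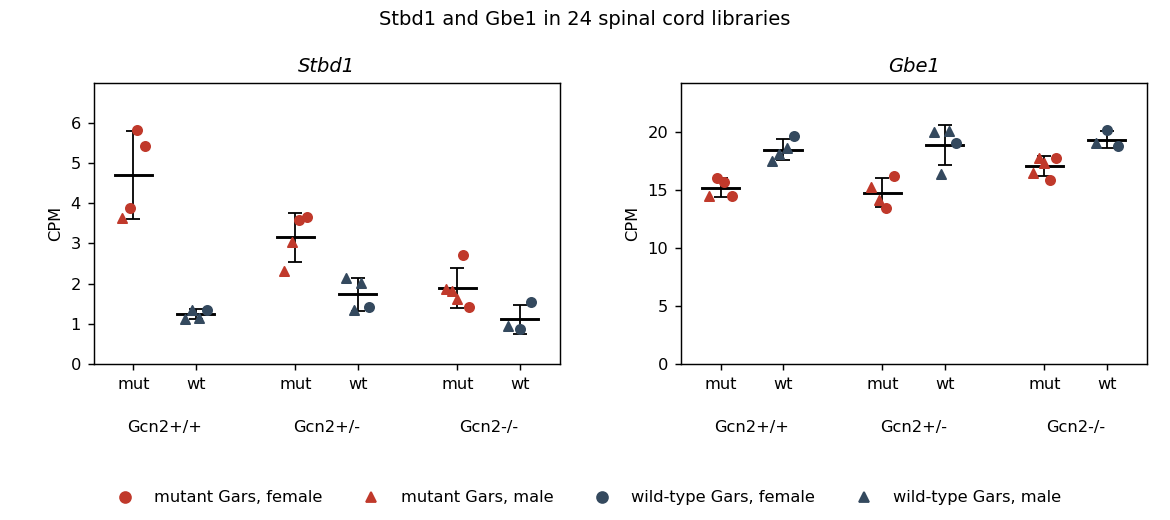
CPM of Stbd1 (left) and Gbe1 (right) in each library by Gcn2 genotype, with mutant Gars (mut, red) left of wild-type Gars (wt, blue); circles are female and triangles male mice, the long bar is the group mean and the error bars are SDs. Stbd1 reaches 5.82 CPM in Gcn2+/+ Gars mutants, and Gbe1 is lower in all mutants than in all mice with wild-type Gars of the same Gcn2 genotype.

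Across the 6 groups Stbd1 averaged 4.69 ± 1.10 CPM in Gcn2+/+ Gars mutants, 3.15 ± 0.615 in Gcn2+/- Gars mutants and 1.88 ± 0.494 CPM in Gcn2-/- Gars mutants (SD, n = 4, 4 and 5). With wild-type Gars it averaged 1.23 ± 0.126 CPM in Gcn2+/+, 1.73 ± 0.409 CPM in Gcn2+/- and 1.11 ± 0.365 CPM in Gcn2-/- mice (SD, n = 4, 4 and 3). Ordered by mean, each group overlapped its neighbour in the order in at least 1 library. The Gars effect on Stbd1 in Gcn2-/- minus that in Gcn2+/+ mice was -0.98 ± 0.35 (log2, SE), and Gcn2+/- minus Gcn2+/+ was -1.02 ± 0.32. The latter was -0.49 without 7 libraries high in nerve root genes, chosen after seeing the data. Of the Gcn2+/+ Gars mutants that fit kept only replicate 1, the one with 3.62 CPM. Both differences contain the libraries that chose the gene and carry no test.

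The Stbd1 values rest on 19 to 172 counts per library, all of them whole numbers. The files hold 1 transcript of Stbd1, and its effective length, the length over which a read can start, was 1711 to 1738 bases in all 24 libraries, so the deposited TPM (transcripts per M, a level per length) gave the same picture. Stbd1 had 3.84 to 5.98 TPM in Gcn2+/+ Gars mutants and 1.12 to 1.32 TPM in Gcn2+/+ mice with wild-type Gars.

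Sex and tissue makeup moved with some of these groups. Of the Gcn2+/+ mice, 3 of 4 Gars mutants were female, with 3.88, 5.82 and 5.43 CPM of Stbd1, against 1 female with wild-type Gars at 1.34 CPM. The 1 male mutant had 3.62 CPM, against 1.12, 1.35 and 1.13 CPM in the 3 males with wild-type Gars. Stbd1 was therefore higher in the mutants within each sex.

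The 10 Schwann cell and nerve root markers, among them the myelin gene Prx, were detected in all libraries, none at 0, and their summed level varied widely. In the Gcn2+/+ Gars mutants they summed to 806, 1998, 896 and 3695 CPM, in the order of the Stbd1 values above, against 739 to 1182 CPM in Gcn2+/+ mice with wild-type Gars. The Schwann score, the mean log2 CPM of these markers, was 1.89, 5.99, 3.20 and 6.79 in the same order. With wild-type Gars it was 1.73 to 1.95. Stbd1 was lowest, at 3.62 CPM, in the 1 mutant whose score lay within that range. It was 5.82 CPM at the score of 3.20, and 3.88 and 5.43 CPM in the 2 mutants with high sums. Its log2 fold change was 1.84 without these 2 libraries, an alternative chosen after seeing the data. In Gcn2+/- mice with wild-type Gars the sums were 1996, 814, 3250 and 860 CPM, and Stbd1 was 2.14 and 2.01 CPM in the libraries with high sums but 1.33 and 1.43 CPM in the others. With the Schwann score as a covariate, the Stbd1 effect in Gcn2+/- mice was 0.92. Without the 7 libraries with a score above 3, chosen after seeing the data, it was 1.15. The 7 were replicates 2, 3 and 4 of the Gcn2+/+ Gars mutants, replicates 1 and 3 of the Gcn2+/- mice with wild-type Gars, replicate 4 of the Gcn2+/- and replicate 5 of the Gcn2-/- Gars mutants. Only replicate 1 of the Gcn2+/+ Gars mutants was left, so Gcn2+/+ effects without the 7 rest on that library.

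The 10 skeletal muscle markers summed to 114 CPM in 1 Gcn2+/+ Gars mutant, the one with 3.88 CPM of Stbd1, and to 1.25 to 5.15 CPM in the other 23 libraries. The motor neuron markers summed to 736 to 949 CPM in Gcn2+/+ Gars mutants, against 1247 to 1351 CPM with wild-type Gars, and 7 of 9 fell, with 0.632% of all 17409 tested genes called. In Gcn2+/- mice the sums were 926 to 1005 CPM in mutants, against 1237 to 1424 CPM with wild-type Gars, and 6 of 9 fell. In Gcn2-/- mice the sums overlapped, at 1138 to 1251 CPM in mutants, against 1164 to 1280 CPM. The median log2 fold change of the 9 was -0.06, but 2 of 9 fell, and these were the 2 genes called there of all 17409. The list, made with earlier results of these data known, holds Calca and Calcb. By CPM both were lower in all Gars mutants than in all mice with wild-type Gars of the same Gcn2 genotype. In whole tissue, fewer cells of a type and less RNA per cell cannot be told apart. The part of motor neuron, nerve root or muscle content in the values of the 8 genes was not tested beyond these comparisons.

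Libraries share a number at the start of their titles whose meaning is not stated. Within the lower-numbered titles the mean of Stbd1 was 4.72 CPM in 2 Gcn2+/+ Gars mutants and 1.13 CPM in 1 mouse with wild-type Gars, and within the higher-numbered titles 4.66 CPM in 2 mutants and 1.27 CPM in 3 with wild-type Gars. For Gcn2+/- mice, with 2 libraries a group in each set, the means were 3.35 CPM in mutants and 1.72 CPM with wild-type Gars at lower numbers, and 2.95 and 1.74 CPM in the same order at higher numbers. For Gcn2-/- mice the lower numbers gave 1.52 CPM in 2 mutants and 1.11 CPM in all 3 with wild-type Gars, none of which had a higher number.

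Gbe1, the branching enzyme gene (ENSMUSG00000022707, chr16:70313949-70569716, plus strand), moved the other way. By CPM it was lower in every Gars mutant than in every mouse with wild-type Gars of the same Gcn2 genotype. Its mean Gars effect over the 3 Gcn2 genotypes passed the test. The Gcn2+/+ Gars mutants had 14.5, 16.1, 15.7 and 14.5 CPM, against 17.5, 18.1, 18.6 and 19.7 CPM with wild-type Gars. The Gcn2+/- Gars mutants had 15.3, 14.2, 13.5 and 16.3 CPM, against 20.1, 16.4, 20.1 and 19.1 CPM with wild-type Gars. The Gcn2-/- Gars mutants had 16.5, 17.8, 17.4, 15.9 and 17.8 CPM, against 19.1, 20.2 and 18.8 CPM with wild-type Gars.

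By CPM the highest mutant lay below the lowest mouse with wild-type Gars in all 3 pairs. Of the 17409 tested genes, 7 (0.0402%) were separated in this way, and Gbe1 was 1 of them. In the opposite direction 2 genes (0.0115%) were separated, none of them among the 8. On the deposited TPM the Gcn2-/- groups overlapped for Gbe1, with 9.77 to 11.72 TPM in Gars mutants and 11.41 to 12.77 TPM with wild-type Gars. The size by CPM was small: the mutant mean was 0.823 of that with wild-type Gars in Gcn2+/+, 0.782 in Gcn2+/- and 0.882 in Gcn2-/- mice.

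Over the 3 Gcn2 genotypes Gbe1 fell by 0.28 on the log2 scale (SE 0.04, 95% interval -0.37 to -0.19, adjusted p = 0.00116, edgeR quasi-likelihood with Benjamini-Hochberg), where 0.448% of all tested genes were called in either direction. Of the 7 genes other than Stbd1, it was the 1 called in this comparison, by edgeR and by DESeq2. It fell by 0.36 ± 0.07 in Gcn2+/- mice (adjusted p = 0.0441, with 0.178% of genes called). In Gcn2+/+ mice the log2 fold change was -0.30 ± 0.08 (adjusted p = 0.0653) and in Gcn2-/- mice -0.17 ± 0.08 (adjusted p = 0.941), and neither was called. With wild-type Gcn2, edgeR called 0 of the 7 genes other than Stbd1, beside 0.632% of all tested genes, though 3 of the 7 (Gbe1, Pygl and Ugp2) had an unadjusted p below 0.05. The same 3 were called by DESeq2. In Gcn2-/- mice 0 of the 8 genes were called by edgeR, beside 0.0115% of all tested genes; 2 of the 7 other than Stbd1 had an unadjusted p below 0.05 and DESeq2 called 0 of those 7.

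The Gars effects on Gbe1 were not shown to differ between Gcn2 genotypes: Gcn2-/- minus Gcn2+/+ was 0.13 (95% interval -0.10 to 0.35, adjusted p = 0.937) and Gcn2+/- minus Gcn2+/+ was -0.07 (-0.28 to 0.15, adjusted p = 0.759). The call over the 3 genotypes held when any 1 library was left out (adjusted p 0.000361 to 0.00621). It was lost without the 7 libraries with a Schwann score above 3, where the fold change was -0.28. That fit kept only replicate 1 of the Gcn2+/+ Gars mutants. The call in Gcn2+/- mice was lost when mutant replicate 2 or 3 or wild-type Gars replicate 1, 3 or 4 was left out (-0.36 to -0.32, adjusted p 0.129 to 0.164). It was also lost without the filter on low counts, with the title number as a replicate block, with the Schwann covariate, with only its own groups, on TPM and without the 7 libraries, and stood in 6 of 17 alternatives in all.

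The separation of Gbe1 stood beside a like one of the motor neuron sums in Gcn2+/+ and Gcn2+/- mice, whose sums are given above. In Gcn2-/- mice the motor neuron sums overlapped, though 2 of the 9 markers fell. Mice that share a title number could be compared in 3 pairs: Gbe1 was 16.1 CPM in a Gcn2+/+ Gars mutant and 19.7 CPM in its partner with wild-type Gars, and 17.4 and 17.8 CPM in 2 Gcn2-/- Gars mutants against 19.1 CPM in 1 mouse with wild-type Gars. Stbd1 in the same pairs was 3.88 against 1.34 CPM, and 1.61 and 1.42 against 0.947 CPM.

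**Figure D2:**
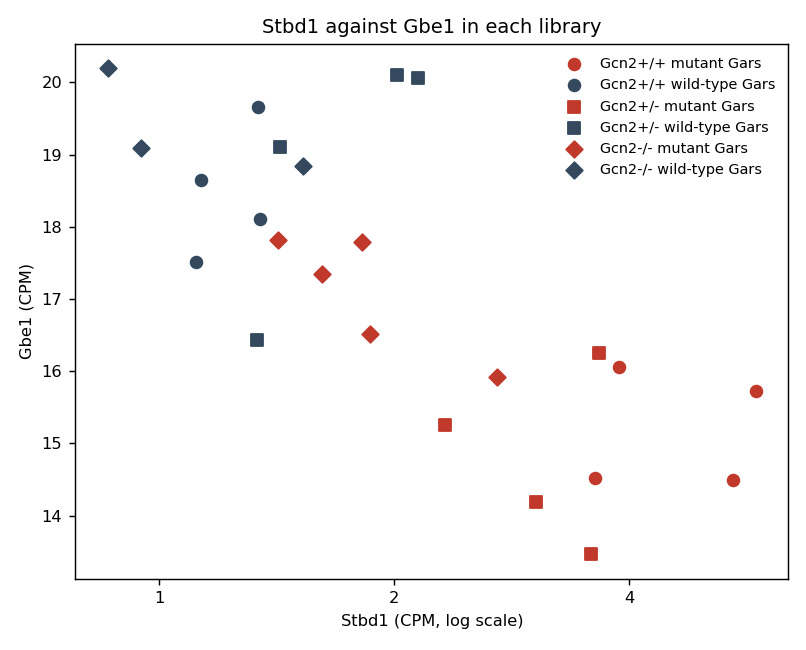
Gbe1 (y axis, CPM) against Stbd1 (x axis, CPM on a log scale) in each of the 24 libraries; color marks the Gars genotype and shape the Gcn2 genotype. Within each Gcn2 genotype Gars mutants lie at higher mean Stbd1 and at lower Gbe1. Gcn2-/- mutants (1.42 to 2.71 CPM of Stbd1, 15.9 to 17.8 CPM of Gbe1) overlap in both with Gcn2+/- mice with wild-type Gars (1.33 to 2.14 and 16.4 to 20.1 CPM).

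Over the 24 libraries the log2 CPM of Gbe1 and Stbd1 had a Pearson r of -0.74, which placed Gbe1 at rank 17391 of the 17409 tested genes from the highest r. The libraries fall into genotype groups, and after removal of the group and sex means r was -0.06. Both values are descriptions of these libraries, with no test.

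Of the synthesis genes other than Gbe1, Gys1 (ENSMUSG00000003865, chr7:45434844-45456619, plus strand) and Ppp1r3c (ENSMUSG00000067279, chr19:36731731-36736653, minus strand) were not called in any comparison by edgeR. Gys1 had 24.9 to 32.1 CPM in Gcn2+/+ Gars mutants and 25.0 to 30.1 CPM with wild-type Gars, a log2 fold change of 0.04 ± 0.10 with a 95% interval of -0.17 to 0.25. It had 25.6 to 31.2 CPM in Gcn2+/- Gars mutants and 28.0 to 33.4 CPM with wild-type Gars, and 25.1 to 32.2 CPM in Gcn2-/- Gars mutants and 27.4 to 31.6 CPM with wild-type Gars. The groups overlapped in all 3 pairs. Over the 3 genotypes the effect on Gys1 was -0.04 (95% interval -0.15 to 0.08). Its counts are less certain than the others: the files list 6 transcripts, its effective length ran from 2476 to 3114 bases, no library had a whole-number count, and it overlaps Ruvbl2 on the opposite strand.

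Ppp1r3c had 59.3 to 71.3 CPM in Gcn2+/+ Gars mutants and 67.2 to 76.4 CPM with wild-type Gars, 60.9 to 73.1 and 61.7 to 78.3 CPM in the same order in Gcn2+/- mice, and 57.3 to 70.1 and 61.9 to 76.7 CPM in Gcn2-/- mice. The groups overlapped in each pair. Its mean Gars effect was -0.07 (95% interval -0.18 to 0.03, adjusted p = 0.745).

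Ugp2 (ENSMUSG00000001891, chr11:21321138-21371201, minus strand), which supplies the UDP-glucose for the synthase, had Gars effects of opposite sign in Gcn2+/+ and Gcn2+/- mice. The Gcn2+/+ Gars mutants had 97.1, 83.5, 89.7 and 90.5 CPM, against 96.6, 131, 109 and 119.9 CPM with wild-type Gars. The Gcn2+/- Gars mutants had 90.7, 113, 115 and 116 CPM, against 97.7, 98.1, 88.6 and 80.2 CPM with wild-type Gars. The ranges overlapped in both pairs, by the mutant at 97.1 CPM in Gcn2+/+ and the mutant at 90.7 CPM in Gcn2+/- mice.

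The log2 fold change of Ugp2 was -0.36 ± 0.11 in Gcn2+/+ mice (adjusted p = 0.12), 0.24 ± 0.11 in Gcn2+/- mice (adjusted p = 0.326) and -0.14 ± 0.11 in Gcn2-/- mice (adjusted p = 0.941), none of them called. The difference Gcn2+/- minus Gcn2+/+ was 0.60 ± 0.15 and was called (adjusted p = 0.0425, edgeR quasi-likelihood with Benjamini-Hochberg). This comparison called 644 genes, 3.7% of those tested, and Ugp2 was the 1 called of the 7 genes other than Stbd1. The Ugp2 call was lost in 18 of 26 alternatives, among them leaving out 11 of the 16 libraries one at a time (adjusted p 0.0132 to 0.1 over the 16). Another was leaving out the 7 libraries with a Schwann score above 3, where the difference was 0.46. Of the Gcn2+/+ Gars mutants only replicate 1 was kept there.

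**Figure D3:**
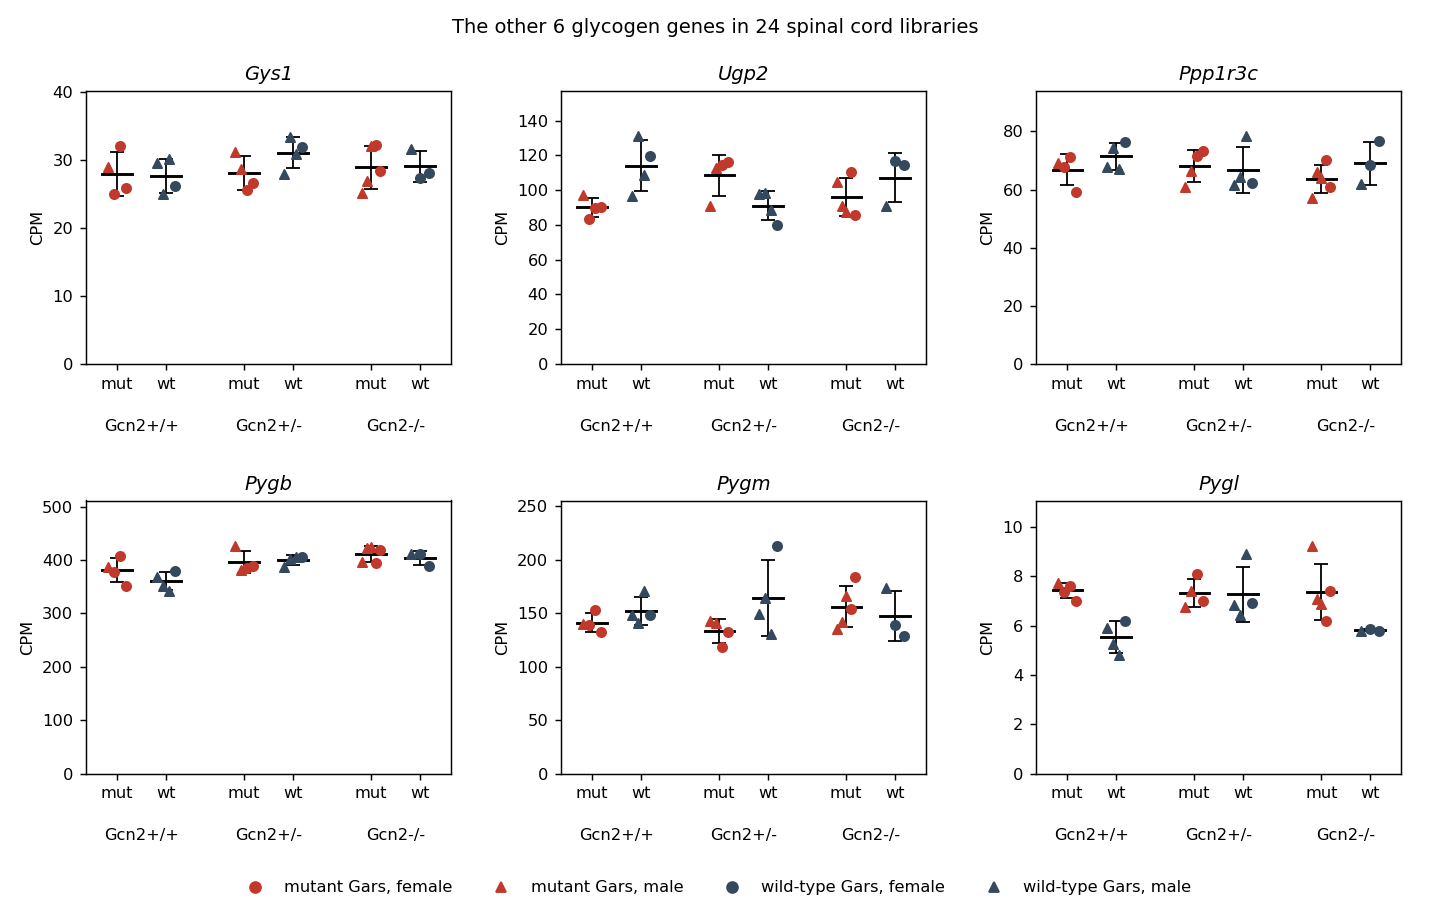
CPM of Gys1, Ugp2, Ppp1r3c, Pygb, Pygm and Pygl in each library, drawn as in the plot of Stbd1 and Gbe1, with means and SDs. Mutant and wild-type Gars libraries overlap in every pair except Pygl in Gcn2+/+ and Gcn2-/- mice.

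Of the phosphorylases, Pygl, the liver form (ENSMUSG00000021069, chr12:70190811-70231488, minus strand), was higher in all Gars mutants than in all mice with wild-type Gars in Gcn2+/+ and Gcn2-/- mice, but not in Gcn2+/- mice. The Gcn2+/+ Gars mutants had 7.74, 7.37, 7.61 and 7.02 CPM, against 5.93, 5.24, 4.79 and 6.18 CPM with wild-type Gars. The Gcn2-/- Gars mutants had 9.24, 7.09, 6.90, 6.21 and 7.42 CPM, against 5.78, 5.86 and 5.80 CPM with wild-type Gars. In Gcn2+/- mice the mutants had 6.78, 7.43, 8.10 and 7.02 CPM, against 6.84, 6.43, 8.92 and 6.93 CPM with wild-type Gars, and the groups overlapped.

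Pygl was not called by edgeR in any comparison: its log2 fold change was 0.43 ± 0.13 in Gcn2+/+ mice (adjusted p = 0.107), 0.01 ± 0.12 in Gcn2+/- mice (0.971), 0.34 ± 0.13 in Gcn2-/- mice (0.941) and 0.26 ± 0.07 over the 3 genotypes (0.146). DESeq2 called it in Gcn2+/+ mice (0.43, adjusted p = 0.0414). In Gcn2+/+ mice Gbe1 and Pygl had libraries that did not overlap, where 8.23% of all tested genes did so in either direction. Stbd1, chosen by its values in those mice, is not counted there. In Gcn2+/- mice 2 of 8, Stbd1 and Gbe1, did not overlap, beside 7.19% of all tested genes. In Gcn2-/- mice 2 of 8, Gbe1 and Pygl, did not overlap, beside 3.83%.

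Pygb (ENSMUSG00000033059, chr2:150786735-150831758, plus strand) and Pygm (ENSMUSG00000032648, chr19:6384399-6398459, plus strand), the abundant forms, showed no such separation. Pygb had 352 to 407 CPM in Gcn2+/+ Gars mutants and 342 to 380.5 CPM with wild-type Gars, 382 to 427 and 387 to 405 CPM in the same order in Gcn2+/- mice, and 394 to 425 and 389 to 412 CPM in Gcn2-/- mice. Its mean Gars effect was 0.03 (95% interval -0.03 to 0.09), the narrowest interval of the 8 genes. Pygm had 132 to 153 CPM in Gcn2+/+ Gars mutants and 141 to 171 CPM with wild-type Gars, 118 to 143 and 130.4 to 213 CPM in Gcn2+/- mice, and 136 to 184 and 129 to 174 CPM in Gcn2-/- mice. Its mean effect was -0.11 (95% interval -0.27 to 0.04, adjusted p = 0.731).

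On the per-length TPM scale Pygb made up 64.3% ± 2.70 of the summed level of the 3 phosphorylases over the 24 libraries, Pygm 34.1% ± 2.89 and Pygl 1.62% ± 0.291 (SD). The Pygl share was 1.82% ± 0.0625 in Gcn2+/+ Gars mutants and 1.32% ± 0.133 with wild-type Gars (SD, n = 4 each). It was 1.71% ± 0.216 and 1.57% ± 0.304 in the same order in Gcn2+/- mice (n = 4 each), and 1.72% ± 0.405 and 1.55% ± 0.305 in Gcn2-/- mice (n = 5 and 3). Shares of the 2 groups overlapped in Gcn2+/- and Gcn2-/- mice, and the effective length of Pygl ran from 1994 to 2576 bases, which moves TPM and not CPM.

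**Figure D4:**
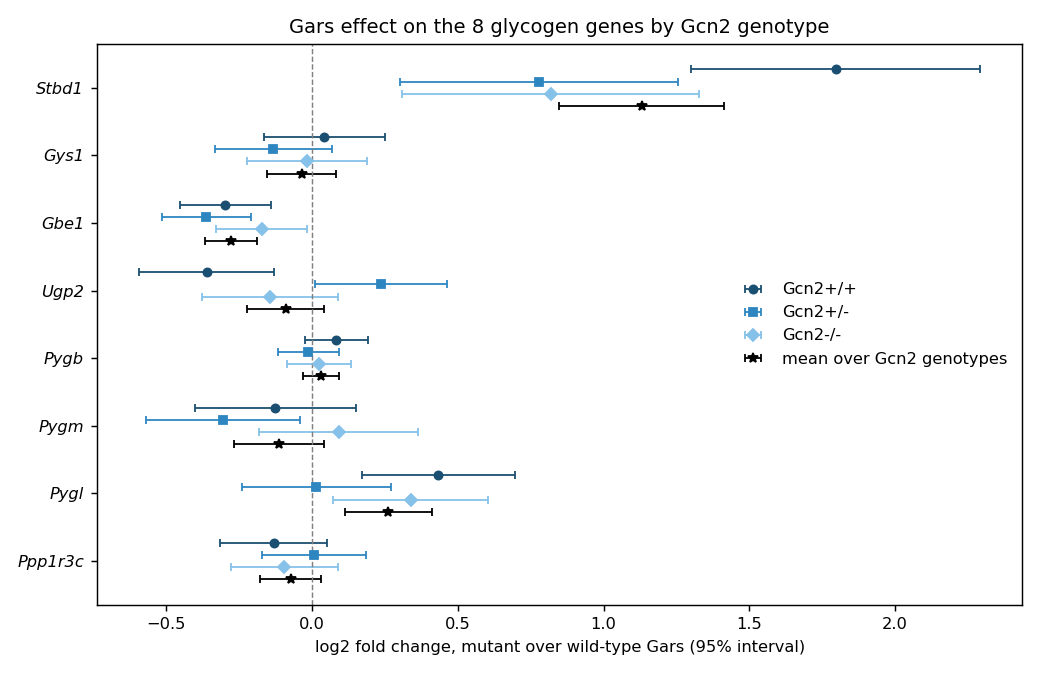
Log2 fold change of each of the 8 genes, mutant over wild-type Gars, with 95% intervals from the edgeR fit, for Gcn2+/+, Gcn2+/- and Gcn2-/- mice and for their mean. Stbd1 stands at 1.80, 0.78 and 0.82 and Gbe1 at -0.30, -0.36 and -0.17, while the interval of the mean crosses 0 for Gys1, Ugp2, Pygb, Pygm and Ppp1r3c; the Stbd1 points that contain Gcn2+/+ mice are a description.

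By median TPM over the 24 libraries the genes ranked Pygb (195), Pygm (100.1), Ugp2 (90.0), Ppp1r3c (47.8), Gys1 (17.5), Gbe1 (11.1), Pygl (4.81) and Stbd1 (1.88). Pygb was highest in 24 of 24 libraries. The order of 2 neighbouring pairs was not fixed: Pygm was above Ugp2 in 16 of 24 libraries, and Stbd1 was above Pygl in 1 of 24. Stbd1, the least abundant, also varied most, with the highest CPM 6.77 times the lowest over all libraries, against 1.25 times for Pygb, 1.34 for Gys1 and 1.37 for Ppp1r3c.

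The other genes of the pathway were taken from 6 lists of 50 genes in all, of which 48 were tested; Gys2, the liver synthase, and Ppp1r3a were too low. By edgeR, 0 of 48 were called in Gcn2+/+ mice, in Gcn2+/- mice, in Gcn2-/- mice and over the 3 genotypes, with unadjusted p below 0.05 for 11, 7, 2 and 4 genes in that order. Over all 17409 genes these unadjusted counts were 3005, 2562, 757 and 1553. DESeq2 called 5 of the 48 in Gcn2+/+ mice, where it called 658 genes in all, among them Gpcpd1, Gsk3b, Pgm2l1 and Ppp1cb, 0 in Gcn2+/- and Gcn2-/- mice, and 1 over the 3 genotypes. The median effect over the 3 genotypes was -0.04 for the 48 genes, with 13 above 0 and 35 below, beside a median of 0.00193 over all 17409 genes.

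Of 8 genes of breakdown, Phka2, a regulatory subunit of phosphorylase kinase, stood at -0.23 ± 0.07 (adjusted p = 0.263). The list's median was -0.04, with 2 above 0 and 6 below.

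Of 6 tested genes of initiation and synthesis, Gyg, glycogenin, which primes new glycogen, stood at -0.09 ± 0.04 (adjusted p = 0.568) and Pgm2, a phosphoglucomutase, at 0.12 ± 0.06 (adjusted p = 0.651). The list's median was -0.07, with 2 above 0 and 4 below. Of 8 phosphatase 1 subunits, Ppp1r3b, another glycogen-targeting subunit, stood at -0.22 ± 0.19 (adjusted p = 0.829) and Ppp1cb, a catalytic subunit, at -0.09 ± 0.09 (adjusted p = 0.861). Their median was -0.04, with 2 above 0 and 6 below.

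The list of STBD1 partners and glycogen quality control held 6 tested genes, with a median of -0.02, 1 above 0 and 5 below. Gpcpd1, which has a starch-binding domain like STBD1, stood at -0.11 ± 0.06 (adjusted p = 0.65), and Gabarapl2, of the GABARAP family, at -0.04 ± 0.03 (adjusted p = 0.786). Among 8 kinase genes, Prkab1 and Prkag1, subunits of the energy sensor AMPK, stood at 0.19 ± 0.06 (adjusted p = 0.296) and -0.11 ± 0.06 (adjusted p = 0.595), and the median was -0.06. Of 12 genes of glucose uptake and glycolysis, Pfkfb3, which makes an activator of phosphofructokinase, stood at -0.11 ± 0.07 (adjusted p = 0.679) and Ldhb, a lactate dehydrogenase subunit, at -0.05 ± 0.03 (adjusted p = 0.772), with a median of -0.03.

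**Figure D5:**
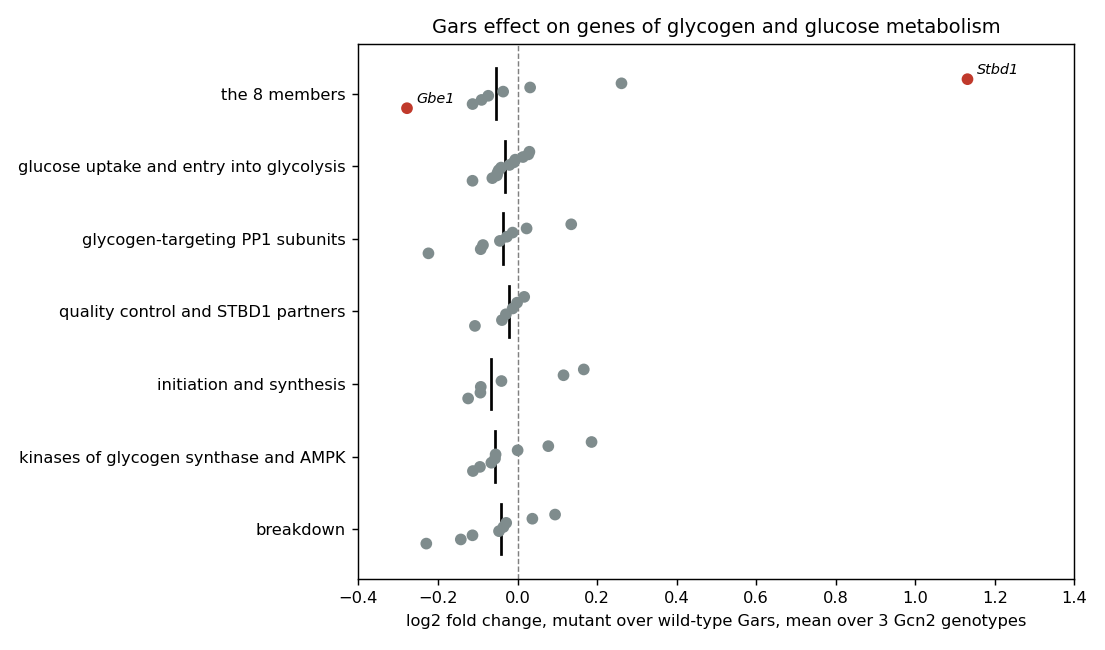
Mean Gars effect over the 3 Gcn2 genotypes (log2 fold change, x axis) of the 8 genes and of the 48 tested genes of 6 pathway lists, 1 point per gene, red where the adjusted p is below 0.05, with the list median as a bar. Gbe1 at -0.28 and Stbd1 at 1.13 are red, Stbd1 as a description, and the 48 list genes lie between -0.23 and 0.19.

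In the difference of the Gars effect Gcn2+/- minus Gcn2+/+, 4 of the 48 pathway genes were called, all above 0, beside 2.45% of all tested genes called in that direction. They were Ppp1cb (0.88, adjusted p = 0.0417), Pgm2l1, which makes glucose 1,6-bisphosphate in brain (0.70, 0.0399), Prkaa1, a catalytic AMPK subunit (0.44, 0.0434), and Gsk3b, a kinase that inhibits glycogen synthase (0.38, 0.0434). Pgm2l1 averaged 165 ± 20.7 CPM in Gcn2+/- Gars mutants and 133 ± 7.58 CPM with wild-type Gars, and 135 ± 8.80 CPM in Gcn2+/+ Gars mutants and 177 ± 24.1 CPM with wild-type Gars (SD, n = 4 each). Ppp1cb averaged 299 ± 55.9 and 228 ± 20.6 CPM in the same order in Gcn2+/- mice and 240.1 ± 11.1 and 335 ± 71.7 CPM in Gcn2+/+ mice.

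These 4 genes and Ugp2 were in one pattern, with mutants above wild-type Gars in Gcn2+/- mice and below in Gcn2+/+ mice. The 9 neuron markers summed to 4410 to 4663 CPM in Gcn2+/- Gars mutants, against 3902 to 4596 CPM with wild-type Gars, and to 3885 to 4270 CPM in Gcn2+/+ Gars mutants, against 4449 to 5061 CPM with wild-type Gars. In the same difference 2 of 9 neuron markers were called above 0, and 7 of 10 Schwann cell and 4 of 10 meningeal markers below 0; their part in the values of the 5 genes was not tested beyond the alternatives that follow. The comparison called 0 genes of all tested with the Schwann cell score as a covariate, without the 2 Gcn2+/+ Gars mutants highest in nerve root genes, and with only its own groups in the fit. The difference Gcn2-/- minus Gcn2+/+ called 0 of the 48 and 0 of the 7 other genes by edgeR, with 0 at an unadjusted p below 0.05 and 0 by DESeq2, beside 0.0115% of all tested genes by edgeR.

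Homozygosity for the Gcn2 mutation with wild-type Gars left the 8 genes uncalled. In Gcn2-/- against Gcn2+/+ mice, 0 of 8 were called by edgeR or DESeq2, beside 0.0287% of all genes by edgeR, and 1 of the 7 other than Stbd1 had an unadjusted p below 0.05. That gene was Pygb, with 389 to 412 CPM in Gcn2-/- mice and 342 to 380.5 CPM in Gcn2+/+ mice, and a log2 fold change of 0.17 ± 0.06 (edgeR adjusted p = 0.97). Pygb starts at position 150786735 of chromosome 2, where Eif2ak4 starts at 118388618.

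Stbd1 stood at -0.25 in Gcn2-/- against Gcn2+/+ mice with wild-type Gars (95% interval -0.79 to 0.29) and at 0.50 in Gcn2+/- against Gcn2+/+ mice (0.03 to 0.98; 0.08 without the 7 libraries with a Schwann score above 3), values that share the Gcn2+/+ libraries that chose the gene. In Gcn2+/- against Gcn2+/+ mice 0 of the 7 other genes were called by either tool, with 3 at an unadjusted p below 0.05: Pygl (0.39 ± 0.12), Ugp2 (-0.32 ± 0.11) and Pygb (0.15 ± 0.05). edgeR called 0 of all 17409 genes there. Of the 48 pathway genes, Ganc, a neutral alpha-glucosidase gene, fell in Gcn2-/- mice with wild-type Gars, with 20.3 ± 0.947 CPM (n = 3), against 33.5 ± 3.86 CPM in Gcn2+/+ mice (SD, n = 4), a log2 fold change of -0.70 ± 0.11 (adjusted p = 0.00863). Ganc starts at position 120403896 of chromosome 2, and Eif2ak4 at 118388618.

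On chromosome 5, 14 other tested genes lie within 500 kb of Stbd1. By edgeR 0 of the 14 were called in the Gars effect of any Gcn2 genotype or over the 3, with unadjusted p below 0.05 for 4 in Gcn2+/+, 2 in Gcn2+/-, 0 in Gcn2-/- mice and 2 over the 3 genotypes, beside the unadjusted counts over all genes given above. DESeq2 called 1 of them in Gcn2+/+ mice (Uso1) and 0 in the other 3 comparisons. In the difference Gcn2+/- minus Gcn2+/+ 1 of 14 was called, beside 3.7% of all tested genes: Uso1, a vesicle tethering factor gene (0.24, adjusted p = 0.0435).

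The 5 tested genes whose log2 CPM followed Stbd1 most closely over the 24 libraries were B4galnt2 (Pearson r = 0.87), Adm2 (0.86), Fgf21 (0.86), Ddr2 (0.82) and P2rx3 (0.81). Their values after removal of group and sex means were 0.48, 0.14, 0.09, 0.38 and -0.15 in that order, so the likeness was mostly one of group levels. Of the other glycogen genes, Pygl had the highest r (0.56, rank 220 of 17409), which was 0.08 after removal of group and sex means. After that removal r was 0.50 for Ugp2, 0.46 for Ppp1r3c, -0.13 for Gys1, -0.44 for Pygb and -0.57 for Pygm.

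Fgf21, which encodes a secreted hormone, averaged 3.93 ± 1.15 CPM in Gcn2+/+ Gars mutants and 1.99 ± 0.588 CPM in Gcn2+/- Gars mutants (SD, n = 4 each), and at most 0.0509 CPM in every other library. Adm2, a peptide hormone gene, was listed at 0 in all 5 Gcn2-/- Gars mutants, all 3 Gcn2-/- mice with wild-type Gars and all 4 Gcn2+/- mice with wild-type Gars. Stbd1, at 1.42 to 2.71 CPM in the Gcn2-/- Gars mutants and 0.859 to 1.53 CPM with wild-type Gars, did not share that pattern of presence and absence. P2rx3, an ATP-gated channel gene of sensory neurons, averaged 1.52 ± 0.212 CPM in Gcn2-/- Gars mutants (n = 5) and 1.29 ± 0.270 CPM with wild-type Gars (n = 3). Ddr2 was higher in the same mutants, at 7.83 to 9.35 CPM, against 5.10 to 7.67 CPM with wild-type Gars, without overlap. B4galnt2 had 0.0310 to 0.151 and 0 to 0.150 CPM in the same order, and overlapped.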

How the data were processed

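The submitters' processing notes name Bowtie2 (2.2.0) and RSEM (1.2.12), and the files hold RSEM's expected counts and TPM values per gene, as deposited by the authors. Their genome build and annotation were not given in the sources used here. Per the labels' protocols, poly(A) RNA was made into stranded libraries with 2 KAPA kits and sequenced as 75 bp paired ends; which library had which kit is not stated. Symbols and positions come from GENCODE M21 (GRCm38), which matched 37607 of 38924 gene IDs (the rest held 0.261% of counts).

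Expected counts were rounded, scaled by TMM and fitted with edgeR 4.0.16 (R 4.3.3; quasi-likelihood, robust) over all 24 libraries, with 6 genotype groups and sex as terms. Filtering on low counts left 17409 genes. Adjusted p-values are Benjamini-Hochberg over these, and a gene was called below 0.05. Alternatives included DESeq2 1.42.0, limma 3.58.1 on log2(TPM + 0.1), covariates and leaving out libraries. The scripts were tested on simulated data.

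The 8 genes, the pathway and marker lists and the tests were chosen with earlier results of these data known. Named genes are the 8, the 2 with the smallest p for the mean Gars effect in each pathway list, pathway genes called in a Gars comparison, any called gene within 500 kb of Stbd1, and the 5 most correlated with it; Ganc and Pygb's chromosome were singled out after their values were seen. One gene that this rule names is not reported here. Totals of 19.7 to 32.4 M counts per library leave Stbd1, at 19 to 172 counts, the least precise.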

Additional observations from a re-analysis of the deposited data

Results flagged for a closer look

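Of 40 groups of libraries checked, 4 held a library far from the others of its group; chance alone marks about 1 in 20. Ugp2 had 90.7 CPM in replicate 1 of the Gcn2+/- Gars mutants, below the other 3. Pygb had 427 CPM in that same library, above the other 3. Pygb had 387 CPM in replicate 1 of the Gcn2+/- mice with wild-type Gars, below the other 3. Ppp1r3c had 78.3 CPM in replicate 3 of the Gcn2+/- mice with wild-type Gars, above the other 3.

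The Gars effect on Ugp2 differed between Gcn2+/- and Gcn2+/+ mice by 0.60 on the log2 scale (edgeR adjusted p = 0.0425), and the adjusted p ran from 0.00636 to 0.6 over the alternatives.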

How the results depend on the processing

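Stbd1 kept its direction in every alternative for the 3 Gcn2 genotypes, and Gbe1 did so for their 3 effects and the mean. In Gcn2+/+ mice 4 of the 8 genes were called by DESeq2 (Gbe1 at -0.30) and 1 to 3 when a library was left out (3 without wild-type Gars replicate 1), with Gbe1 between -0.32 and -0.26. In Gcn2+/- mice 0 were called, with Gbe1 at -0.36 without a filter on low counts, -0.34 with the title number as a replicate block, -0.30 with the Schwann score as covariate, -0.36 with only its own groups, -0.38 on deposited TPM and -0.31 without the 7 libraries with a Schwann score above 3; leaving out a library gave 0 to 1 called and -0.42 to -0.32. In the mean effect Gbe1 stood at -0.28 without those 7 libraries, a fit that kept only replicate 1 of the Gcn2+/+ Gars mutants. With a library left out, Gbe1 was called in the mean effect in 24 of 24 fits, beside 57 to 91 of all genes. Pygl was called in 1 of 24, the fit without Gcn2+/- wild-type Gars replicate 3. For Gcn2+/- minus Gcn2+/+, 0 were called without the filter, with the replicate block, the Schwann covariate, only its own groups, TPM, and without the 2 or the 7 libraries, and 0 to 1 when a library was left out. DESeq2 called 1 of the 7 genes other than Stbd1 there (Ugp2), beside 1718 of all genes. The cause was not tested.

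Values near 0 changed sign. On TPM these were Pygl (-0.00301) and Ppp1r3c (-0.00553) in Gcn2+/- mice, Gys1 in Gcn2-/- mice (0.0644), in the mean (0.0178) and in Gcn2-/- against Gcn2+/+ mice with wild-type Gars (-0.0225), and Ppp1r3c in Gcn2-/- minus Gcn2+/+ (-0.0244). With the replicate block these were Gys1 (0.0218) and Ppp1r3c (0.0261) in Gcn2-/- mice. With title numbers in 2 sets Gys1 was 0.0431 in Gcn2-/- mice and 0.0290 in Gcn2-/- minus Gcn2+/+. Ppp1r3c in that difference was -0.0208 without the sex term, -0.0361 without the 2 libraries and -0.0277 without the 7. Without the 7, Pygm was -0.00680 in Gcn2-/- mice, Ppp1r3c 0.00937 in the mean, and Gbe1 0.0361 in Gcn2+/- minus Gcn2+/+ and -0.0603 in Gcn2+/- against Gcn2+/+ mice with wild-type Gars; with the Schwann covariate Gbe1 was 0.0718 and -0.0450 there. With only its own groups, Pygm was 0.0252 in Gcn2-/- against Gcn2+/+ mice with wild-type Gars.

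When a library was left out, ranges crossed 0 for Gys1 in Gcn2+/+ mice (-0.0313 to 0.0857), in Gcn2-/- mice (-0.0850 to 0.0441) and in Gcn2-/- minus Gcn2+/+ (-0.14 to 0.0158). They did so for Pygb (-0.0497 to 0.00886), Pygl (-0.0405 to 0.121) and Ppp1r3c (-0.0530 to 0.0960) in Gcn2+/- mice, for Pygb (-0.00371 to 0.0415) and Pygm (-0.00472 to 0.28) in Gcn2-/- mice, and for Ppp1r3c in Gcn2-/- minus Gcn2+/+ (-0.0301 to 0.0998). With wild-type Gars they did so for Ugp2 (-0.17 to 0.00886) and Pygm (-0.26 to 0.0352) in Gcn2-/- against Gcn2+/+ mice, and for Gbe1 (-0.00400 to 0.0952) and Pygm (-0.0544 to 0.205) in Gcn2+/- against Gcn2+/+ mice.

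Over all genes, 110 were called in Gcn2+/+ mice, against 658 by DESeq2 and 47 to 600 with a library left out, 31 in Gcn2+/- mice (186 by DESeq2, 18 to 66), 78 in the mean (205 by DESeq2, 57 to 91) and 644 in Gcn2+/- minus Gcn2+/+ (1718 by DESeq2, 0 to 1784). Libraries with the same title number deviated together more than others: the median r was 0.177 over 32 pairs, 23 of them above 0.1, against -0.0215 over 207 pairs with different numbers, 47 of them above 0.1. The labels do not say what the number marks, and the main fit left it out, so its p-values treat these libraries as independent. With the number as a replicate block the Gbe1 call in Gcn2+/- mice was lost.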
